A study of Mus musculus with 69 samples.

Results

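The 40 endothelial identity genes described here are genes by which vascular endothelial cells are usually recognised. They were taken from a list of symbols and found by Ensembl identifier, and all 40 were present among the 56953 genes counted. The list holds 11 junction and surface proteins, 11 receptors, 7 secreted proteins and ligands, 7 transcription factors and 4 enzymes, channels and membrane proteins.

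Bulk RNA-Seq of poly(A) RNA was performed with primary cells of male C57BL/6 mice: smooth muscle cells of the aorta with EGFR (WT VSMC) or without it (KO VSMC, where Cre recombinase under the SM22 promoter removes a floxed Egfr), and endothelial cells of the heart (EC). Each culture was exposed for 24 h to Control medium, HG + FFA (20 mM glucose and free fatty acids, given in the labels as 100 µM and in the methods as 100 µM each of oleate and palmitate), AII + NA (30 nM angiotensin II and 300 nM of a catecholamine, named epinephrine in the labels and norepinephrine in the methods) or ALL, the combination. A set is a culture from 1 animal at 1 passage that was split over these conditions. The 69 libraries came from 4 sets of WT VSMC (sets 1 to 4), 4 sets of KO VSMC (5 to 8) and 10 sets of EC (9 to 18). The ALL library of set 5, the Control library of set 10 and the AII + NA library of set 15 were not analysed here. Because 1 animal gave both set 17 and set 18, the EC represent 9 animals. Albumin, the carrier of the fatty acids, was present in all incubations including Control. EC had been selected with magnetic beads against CD31, the product of Pecam1, after removal of cells with the leukocyte antigen CD45, so the level of Pecam1 in EC was part of how the cells were chosen. All EC are labelled WT, although sets 15 and 16 came from the animals that also gave KO VSMC sets 7 and 6. EC sets 9 and 10 came from the animals of WT VSMC sets 1 and 2, and these sets were treated as independent in the comparisons of EC with WT VSMC. The VSMC libraries carry the batch label B1 and the EC libraries B2, so cell type, organ and batch cannot be told apart.

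Endothelial cells line all vessels as a sheet sealed by VE-cadherin, PECAM-1 and claudin-5. They respond to vascular endothelial growth factors and angiopoietins through receptor tyrosine kinases, and transcription factors of the ETS, SOX and KLF families maintain their identity. Many of these genes are known to decline when endothelial cells are cultured without flow, and cells of other types can outgrow them in a dish. Smooth muscle cells express few of these genes, although endoglin and angiopoietin-2 are also made by mural cells.

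The sequences before the RefSeq starts of Emcn, Cd34, Flt1 and Klf2 are shown because most stressor effects described below concern these genes. They are RefSeq sequences (assembly GRCm38.p6), in which 20 of the 40 members had an entry. The 250 bases before each start matched GRCm39, the build of the count tables, exactly once on the chromosome, and the positions given are those of GRCm39. Bases lying inside the annotated gene were left out for Emcn, Cd34 and Flt1. For Klf2, 180 of the 250 bases lie inside the annotated gene, and the 30 bases given around a match are among them. Capitals mark matches, on either strand, to the ETS sequences CAGGAA or CCGGAA or to the MEF2 box (CTA and TAG with 4 bases of any kind between them).
Emcn, chr3:137046589-137046793, plus strand: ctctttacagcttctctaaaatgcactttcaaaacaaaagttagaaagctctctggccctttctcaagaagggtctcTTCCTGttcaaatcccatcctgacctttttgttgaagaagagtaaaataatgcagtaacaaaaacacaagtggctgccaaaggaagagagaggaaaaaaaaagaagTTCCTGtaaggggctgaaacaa
Cd34, chr1:194620879-194621028, plus strand: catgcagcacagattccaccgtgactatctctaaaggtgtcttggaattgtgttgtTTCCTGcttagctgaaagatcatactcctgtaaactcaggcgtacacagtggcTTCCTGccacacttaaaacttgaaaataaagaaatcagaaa
Flt1, chr5:147662827-147663071, minus strand: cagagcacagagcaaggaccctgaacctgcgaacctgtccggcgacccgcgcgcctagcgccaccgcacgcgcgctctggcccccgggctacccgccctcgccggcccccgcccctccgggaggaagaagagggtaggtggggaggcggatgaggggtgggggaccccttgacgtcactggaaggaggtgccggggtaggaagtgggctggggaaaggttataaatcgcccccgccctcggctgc
Klf2, chr8:73072778-73072807, plus strand: tataccgcggCTAAATTTAGgctgagcccg
Emcn held 2 ETS matches, beginning 173 and 67 bases before the RefSeq start, and Cd34 held 2, beginning at 194 and 141 bases. Klf2 held a MEF2 box beginning 118 bases before the RefSeq start, inside the annotated gene. No match was present in Flt1, but the shorter GGAA, which this sequence holds, was not searched for. An ETS match was present in 12 of the 20 members with an entry, counted by gene, and in 35.1% of 32851 promoter entries of the same length. A gene with several entries would count once among the members, so these shares and those that follow are not strictly alike. The MEF2 box was found in 1 of the 20 (3.2% of all promoters), the SOX motif ACAATG in 1 (10.7%) and the FOX motif TGTTTAC in 0 (3.17%). The matches shown do not overlap each other, and they describe the sequence only.

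The libraries held 17166133 to 43240489 counts. Levels are given in FPM, the count of a gene scaled to the size of its library with TMM factors common to all libraries, and 3 counts, used as the detection floor, corresponded to 0.0694 to 0.175 FPM. The set means of Egfr were 249 to 433 FPM in WT VSMC, 36.3 FPM in KO VSMC set 5, 0.949 to 1.80 FPM in KO VSMC sets 6 to 8 and 2.65 to 151 FPM in EC. Of the smooth muscle markers, Acta2 was present in WT VSMC under Control (236 to 1036 FPM), whereas the contractile genes Myh11 (3.02 to 10.2 FPM) and Tagln (1.68 to 4.58 FPM) were low. KO VSMC set 5 stood apart with 242 FPM of Myh11.

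In EC under Control most members were well expressed, but several genes regarded as typical of endothelium were close to the detection floor. The median over 9 sets was at least 100 FPM for 5 members, 10 to 100 FPM for 20, 1 to 10 FPM for 9 and under 1 FPM for 6. Per kilobase of exon, the scale on which genes can be compared with each other, the medians were led by Eng (69.8 FPM per kb), Cdh5 (41.3), Pecam1 (28.0), Aqp1 (23.8), Emcn (23.1) and Ptprb (22.0). These neighbours do not differ beyond the spread between the sets. The lowest medians were those of Nos3 (0.166 FPM per kb), Lyve1 (0.0998), Cldn5 (0.0719), Aplnr (0.0210) and Sox17 (0.0159).

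**Figure D1:**
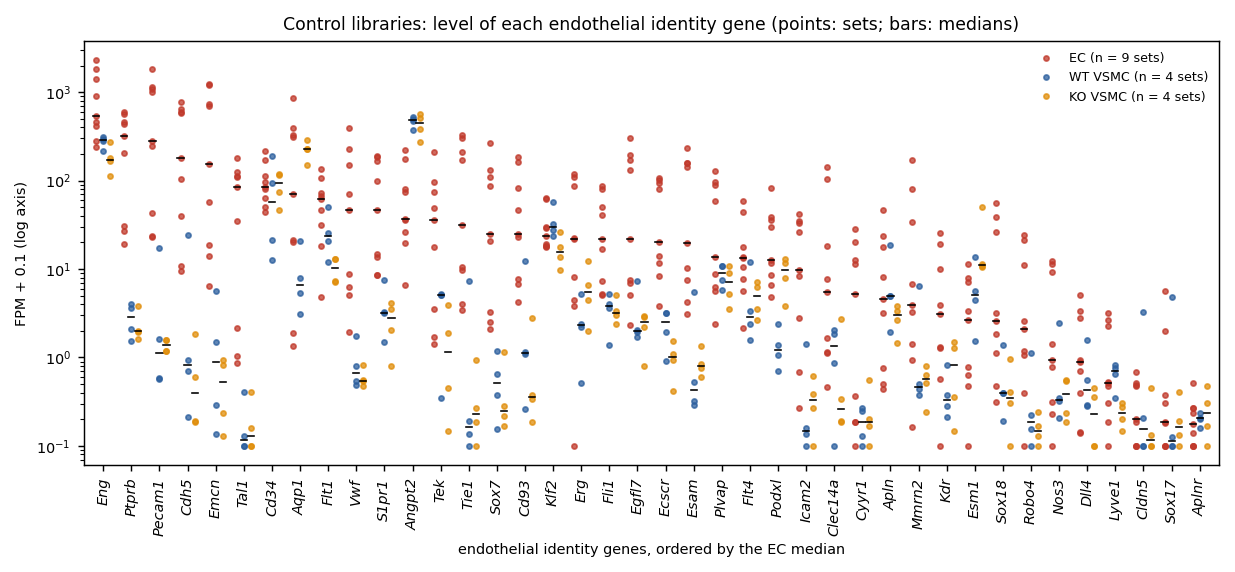
Level of each of the 40 members in the Control libraries (vertical log axis, FPM plus 0.1), with 1 point per set for EC (9 sets), WT VSMC (4 sets) and KO VSMC (4 sets), bars at the medians and genes ordered by the EC median. The EC points of most genes spread over more than a factor of 10, Angpt2 lies higher in VSMC, and the EC medians of Cldn5, Sox17 and Aplnr lie near the bottom.

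Of the junction and surface proteins, Pecam1 ranged in EC Control from 22.8 FPM over a median of 280.5 to 1843 FPM. Cdh5, which encodes VE-cadherin, ranged from 9.48 over 181 to 780.1 FPM, and Emcn, a sialomucin of capillaries and veins, from 6.35 over 153 to 1248 FPM. For all of these, sets 9, 11 and 13 were the lowest. Cd34, a sialomucin that fibroblasts and progenitor cells share, had a narrow range from 44.6 over 85.4 to 214 FPM and was highest in set 11. Cldn5, the claudin of endothelial tight junctions, was at 0 counts in 3 of 9 libraries and at most 0.586 FPM. The other junction and surface genes, which encode adhesion molecules of endothelial contacts (Esam, Icam2), sialomucins or small surface proteins (Podxl, Ecscr) and lectin-like receptors (Clec14a, Cd93), had medians between 5.43 FPM (Clec14a) and 24.8 FPM (Cd93).

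The 3 receptors for vascular endothelial growth factors were present at unequal levels. Flt1 (VEGFR1) ranged from 4.79 over 61.8 to 136 FPM, Flt4 (VEGFR3) from 2.06 over 13.2 to 58.4 FPM and Kdr (VEGFR2, the main signalling receptor) from 0 over 2.99 to 25.6 FPM. Tek, which encodes the angiopoietin receptor TIE2, ranged from 1.31 over 36.2 to 213 FPM, with set 14 alone at the top. Ptprb, a phosphatase acting on TIE2 and VE-cadherin, ranged from 19.0 over 316 to 594 FPM. Eng, a co-receptor for transforming growth factor β, was the most even of the abundant receptors (241 over 544 to 2311 FPM). The apelin receptor Aplnr did not exceed 0.421 FPM, and Lyve1, the hyaluronan receptor of lymphatic vessels, did not exceed 3.07 FPM. Tie1, the partner of TIE2, had a median of 31.3 FPM, the sphingosine-1-phosphate receptor S1pr1 46.0 FPM and the guidance receptor Robo4 2.00 FPM.

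Among the secreted proteins, Vwf, the clotting glycoprotein of endothelial granules, ranged from 1.86 over 46.5 to 398 FPM. Angpt2, an antagonist of TIE2, ranged from 6.42 over 37.2 to 223 FPM. Of its exon bases, 70.7% lie under another gene, Mcph1, and the strand setting of the counting is not given in the sources used here. The genes of sprouting tip cells were low: Apln ranged from 0.341 over 4.53 to 46.4 FPM, Esm1 from 0 over 2.58 to 11.2 FPM and the Notch ligand Dll4 from 0.0415 over 0.790 to 4.97 FPM. Egfl7, a secreted matrix-associated protein, had a median of 21.6 FPM. Among the transcription factors, the ETS factor Erg ranged from 0 over 21.9 to 118 FPM, and Klf2, which is induced by laminar flow, from 17.6 over 23.4 to 63.2 FPM. Sox17, a factor of arterial endothelium, had a median of 0.0847 FPM and exceeded 2 FPM in set 15 only (5.56 FPM). The other SOX factors Sox7 and Sox18 had medians of 24.8 and 2.47 FPM, Fli1 21.8 FPM and Tal1 85.7 FPM. Nos3, the endothelial nitric oxide synthase, ranged from 0 over 0.831 to 12.4 FPM, with 32.7% of its exon bases shared with other genes, and the water channel Aqp1 from 1.24 over 70.8 to 850.4 FPM. Plvap, the protein of fenestral diaphragms, had a median of 13.5 FPM and the membrane protein gene Cyyr1 5.07 FPM.

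The EC sets differed more from each other than the libraries within a set did. The SD within sets given here is what remained after the set and the mean effect of each condition were removed. On the log2 scale, the median member had an SD of 2.32 between sets and 0.43 within sets, whereas the 12279 genes that averaged 3 FPM or more in EC had medians of 0.37 and 0.21. The members were not filtered by level. The SD between sets was the larger of these for 38 of the 40 members. For 19 members the 3 lowest sets were sets 9, 11 and 13, for 32 members at least 2 of these sets were among the 3 lowest, and for 3 members none was. These sets were picked by the members' own levels, and the shares over all genes were not computed. The set means of Emcn spanned a factor of 191 (7.94 FPM in set 9 to 1518 FPM in set 18), those of Cdh5 a factor of 102 and those of Pecam1 a factor of 89.3. By contrast, Cd34 spanned a factor of 5.87 and Klf2 a factor of 3.41.

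**Figure D2:**
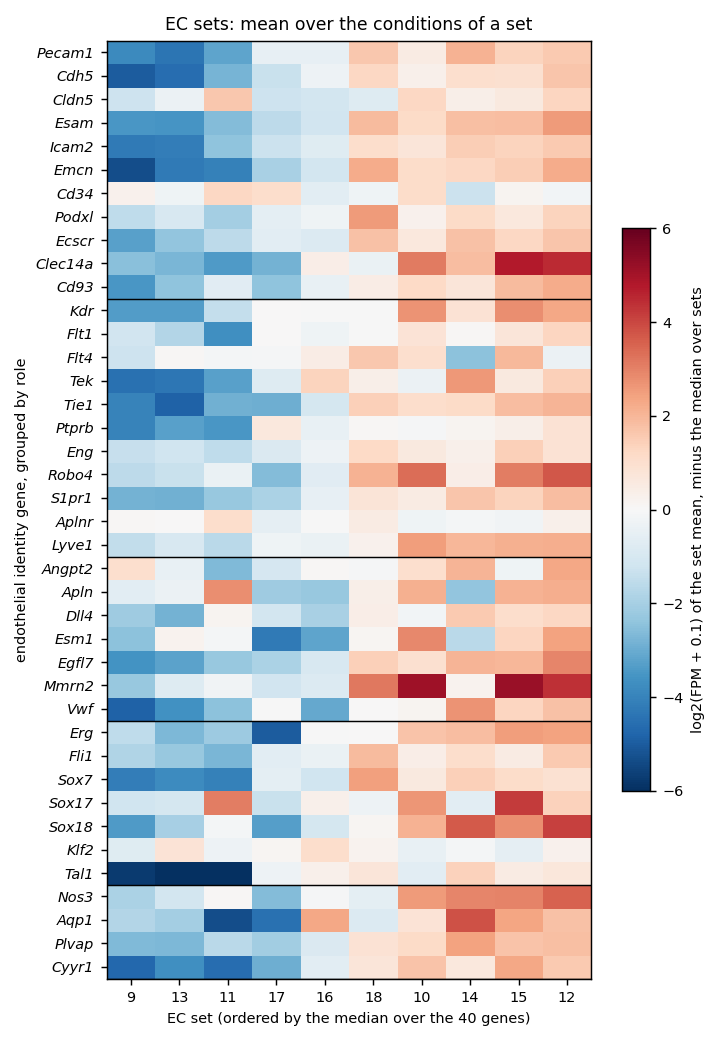
Mean of each member over the conditions of each EC set (colour, log2 of FPM plus 0.1 minus the median over the 10 sets), with genes grouped by role and sets ordered by their median over the 40 genes. Sets 9, 13 and 11 are low for most members, Cd34 and Klf2 vary little, and Erg is lowest in set 17.

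Sets 17 and 18 were unlike each other although they came from the same animal. Under Control, Pecam1 was 248.5 FPM in set 17 and 1078 FPM in set 18, Emcn 57.9 and 1248 FPM, and the matrix protein gene Mmrn2 0.0620 and 34.0 FPM. Erg in set 17 was at 0, 1.06, 0.855 and 0.42 FPM in Control, HG + FFA, AII + NA and ALL, while Ptprb in the same libraries was at 569, 521, 600.4 and 529.6 FPM. Set 17 was thus lowest of all sets for Erg and among the high sets for Ptprb.

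Fibroblast markers, and in part smooth muscle and pericyte markers, were higher in the sets with low member sums. The 40 members summed to 674, 804 and 851 FPM in Control of sets 9, 11 and 13, to 1919 FPM in set 17 and to 2365 to 8425 FPM in the other 5 sets. The 10 fibroblast markers summed to 8488, 31628 and 27915 FPM in sets 9, 11 and 13, to 16302 FPM in set 17 and to 2383 to 7455 FPM in the others. The 10 smooth muscle and pericyte markers were highest in sets 13 and 11 (4822 and 3811 FPM) and lay between 423 and 1701 FPM in the others. For comparison, the fibroblast sum was 10602 to 36007 FPM in WT VSMC and 3813 to 19721 FPM in KO VSMC. The smooth muscle and pericyte sum was 1136 to 1784 and 1358 to 3633 FPM there, below EC sets 13 and 11. Neither list was thus particular to the cell type it is named after. The 10 leukocyte markers summed to 5.52 to 104 FPM, the 6 mesothelial markers to 3.35 to 82.3 FPM, the 5 lymphatic markers to 7.26 to 222 FPM and the 8 cardiomyocyte markers to 6.49 to 306 FPM. The mesothelial sum was highest in set 17 and the cardiomyocyte sum in set 18, so these lists did not follow the order of the members. In bulk RNA, fewer endothelial cells and less RNA of these genes per cell cannot be told apart, and the part of the other cells in the members' levels was not tested.

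**Figure D3:**
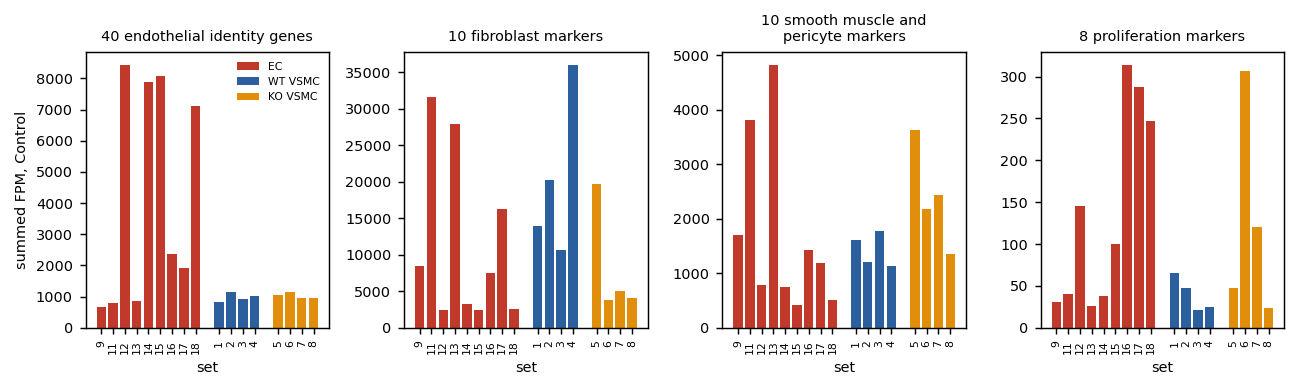
Summed FPM of the 40 members, 10 fibroblast markers, 10 smooth muscle and pericyte markers and 8 proliferation markers in each Control library (bars, one per set, coloured by cell type, linear axes from 0). EC sets 9, 11 and 13 have member sums of 674 to 851 FPM, as low as the VSMC sets, and sets 11 and 13 have the highest fibroblast and smooth muscle sums of the EC.

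To see which members separate the cell types, EC were compared with WT VSMC under Control, with sets 17 and 18 joined as 1 animal. Of 38 members tested, 16 were higher and 1 was lower in EC (edgeR quasi-likelihood test, adjusted p below 0.05), while 7.33% of the 16958 genes tested were higher and 5.7% lower. The median log2 fold change was 4.37 for the members and 0.04 for all genes. The members called were 6 of 11 junction and surface proteins, 2 of 10 receptors tested, 2 secreted proteins higher and 1 lower, 4 of 6 transcription factors tested and 2 of the 4 remaining genes. An unadjusted p below 0.05 was reached by 29 members (30.9% of all genes), and DESeq2 called 28 (21.3% of all genes). With 4 WT VSMC sets the count depended on single sets: it was 4 without set 1, 3 or 4, 13 without set 2, and 24, 22 and 26 without EC set 9, 11 or 13. The shares of all genes called without these sets were not computed, so a change particular to the members cannot be read from these counts.

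The 6 members with the largest differences were Tal1, Emcn, Vwf, Sox7, Pecam1 and Ptprb. Tal1, a factor of blood and endothelial development, was at 0.0306, 0.309, 0 and 0 FPM in WT VSMC sets 1 to 4 and at 0.761 to 179 FPM in EC (log2 fold change 9.74 ± 2.07 SE, adjusted p = 0.012). Emcn was at 1.41, 5.48, 0.192 and 0.0365 FPM in WT VSMC (7.94 ± 1.94, adjusted p = 0.022), and Pecam1 at 1.53, 17.2, 0.494 and 0.474 FPM (7.00 ± 1.78, adjusted p = 0.025). In none of these did the groups overlap. Vwf was at 0.703, 1.65, 0.384 and 0.438 FPM in WT VSMC (log2 fold change 7.09 ± 1.73, adjusted p = 0.022), and Sox7, a SOX factor, at 0.275, 1.10, 0.0548 and 0.547 FPM (7.02 ± 1.59, adjusted p = 0.016). Ptprb, at 3.97, 3.53, 1.97 and 1.42 FPM, had a log2 fold change of 6.70 ± 1.202 SE (adjusted p = 0.0064). For these as well every EC library lay above every WT VSMC library, as was the case for 9 of 35 members and for 3.81% of 12765 genes with at least 3 FPM in a group.

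The smallest of the differences called higher were those of the ETS factor Fli1 (log2 fold change 3.25), the sialomucin Podxl (4.20) and Erg (4.22). The remaining members called higher were Cyyr1, Esam, Icam2, Egfl7, Aqp1, S1pr1 and Ecscr, with log2 fold changes between 4.44 (Ecscr) and 6.69 (Cyyr1). WT VSMC set 2 was far above the other WT VSMC sets for Cdh5 (0.611, 24.0, 0.110 and 0.839 FPM in sets 1 to 4), and Cdh5 missed the threshold (5.66 ± 1.76, adjusted p = 0.051). Kdr (0.275, 0.720, 0.110 and 0.182 FPM in WT VSMC) missed it as well (4.58 ± 1.48, adjusted p = 0.058), and so did Tek (5.01, 5.14, 0.247 and 4.96 FPM, 3.94 ± 1.41, adjusted p = 0.079). The same held for Tie1 (6.03), Sox18 (5.04), Clec14a (4.98), Robo4 (4.58), Mmrn2 (4.29), Cd93 (4.16), Nos3 (2.61), Plvap (2.48), Flt4 (1.94), Dll4 (1.49), Flt1 (1.15) and Lyve1 (1.07), with adjusted p between 0.052 (Sox18) and 0.50 (Lyve1). Tal1, Podxl, Ptprb and the surface protein gene Ecscr passed under all 19 alternatives tried for them.

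For 6 members the log2 fold change was 1 or less. Angpt2 was lower in EC: WT VSMC had 376, 475, 494 and 524 FPM, above all EC libraries (log2 fold change −2.55 ± 0.66, adjusted p = 0.027). Cldn5 was at 0, 3.19, 0 and 0.109 FPM in WT VSMC, where set 2 exceeded all EC libraries (−1.75 ± 1.29, adjusted p = 0.37). Esm1 (1.44, 13.6, 5.54 and 4.41 FPM), Klf2 (23.4, 57.9, 27.5 and 32.0 FPM), Cd34 (21.1, 94.3, 12.7 and 191 FPM) and Apln (4.92, 18.5, 4.80 and 1.82 FPM) overlapped with EC. Their log2 fold changes were −0.73 ± 0.83, −0.13 ± 0.42, 0.33 ± 0.63 and 0.75 ± 1.08, and none passed (adjusted p between 0.58 and 0.86). Eng, at 296, 281, 314 and 215 FPM in WT VSMC, differed by 1.73 ± 0.57 without passing (adjusted p = 0.062). Aplnr and Sox17 were not tested because of low counts.

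The VSMC still contained RNA of many members. The Control median was under 1 FPM for 19 members in WT VSMC and for 22 in KO VSMC, while Angpt2, Eng and, in KO VSMC, Aqp1 were above 100 FPM. Averaged over its conditions on the log2 scale, set 2 was the highest WT VSMC set for 29 of the 40 members. Under Control, Sox17 was at 0, 4.73, 0.0274 and 0 FPM and Nos3 at 0.245, 2.37, 0.219 and 0.109 FPM in sets 1 to 4, with set 2 the highest for both. By the same averages, KO VSMC set 5, with remaining Egfr and high Myh11 but without an ALL library, was highest for 25 members. Shares of all genes highest in these sets were not computed. Cdh5 under Control was 1.73 FPM in set 5, against 0.0868, 0.504 and 0.0911 FPM in sets 6 to 8. Erg in KO VSMC was at 12.2, 4.398, 6.45 and 1.91 FPM, against 2.14, 5.07, 0.411 and 2.26 FPM in WT VSMC. Pecam1 was at 1.49, 1.07, 1.48 and 1.09 FPM, Vwf at 0.728, 0.376, 0.437 and 0.456 FPM and Tek at 3.85, 0.347, 1.78 and 0.0456 FPM in KO VSMC sets 5 to 8. The tip cell gene Esm1 was at 10.7, 49.8, 10.5 and 11.3 FPM, with set 6 far above the others, and Angpt2 at 379.5, 568.1, 276.5 and 511.9 FPM. Under Control, Apln did not exceed 3.69 FPM, Kdr 1.39 FPM, and Nos3, Dll4, Lyve1, Aplnr and Sox17 stayed under 0.5 FPM in all KO VSMC sets.

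Between KO VSMC and WT VSMC under Control, edgeR called 0 of 26 members tested, and of 16089 genes it called 0.00622% higher and 0% lower. An unadjusted p below 0.05 was reached by 6 members (12.2% of all genes), and DESeq2 called 3 (2.13%). The median log2 fold change was −0.58 for the members and −0.00 for all genes. Aqp1 had the largest difference, with 289, 226, 229 and 149.8 FPM in KO VSMC sets 5 to 8 against 7.85, 20.8, 3.04 and 5.29 FPM in WT VSMC sets 1 to 4. The groups did not overlap, and the log2 fold change was 4.60 ± 0.59 (95% interval 3.28 to 5.93, adjusted p = 0.13). Podxl was at 3.71, 11.7, 7.86 and 12.9 FPM in KO VSMC against 0.978, 2.26, 0.603 and 1.28 FPM, also without overlap (2.84 ± 0.52, adjusted p = 0.20). These were the 2 of 19 members with all KO VSMC libraries higher, against 2.39% of 12443 genes. Flt1 was at 12.9, 12.9, 7.29 and 7.06 FPM in KO VSMC and at 50.3, 25.7, 11.9 and 20.9 FPM in WT VSMC, with overlap between the groups (−1.42 ± 0.42, adjusted p = 0.34). DESeq2 called Aqp1, Podxl and Flt1. Without set 5, edgeR called 2 members, and the share of all genes called without it was not computed.

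The stressors were compared with Control within sets. In EC, HG + FFA raised 1 of 38 members tested and lowered 1, while 1.64% of 17148 genes rose and 1.88% fell. Over the 9 sets with a Control library, Emcn was at 8.775 over 150.2 to 1869 FPM under HG + FFA and at 6.35 over 153 to 1248 FPM in Control, so the ranges overlapped widely and the medians were close. Within sets it was higher in 8 of 9 (log2 fold change 0.37 ± 0.08, adjusted p = 0.0061). Klf2 was at 8.96 over 15.4 to 29.3 FPM and at 17.6 over 23.4 to 63.2 FPM in Control, and lower in 8 of 9 sets (−0.82 ± 0.24, adjusted p = 0.046). Leaving out any one of sets 10, 12, 13, 14, 15, 16 or 17 took Klf2 over the threshold (adjusted p up to 0.15), and joining sets 17 and 18 in 1 block by animal took both over it (Emcn 0.84, Klf2 0.13). Tek was lower in 9 of 9 sets without passing (−0.34 ± 0.10, adjusted p = 0.059). An unadjusted p below 0.05 was reached by 12 members (16.9% of all genes), DESeq2 called 5 (5.65%), and the median of the members was 0.09 against −0.00 for all genes.

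With AII + NA, edgeR called 0 members and 0% of all genes in EC, 2 members reached an unadjusted p below 0.05 (6.67% of all genes) and DESeq2 called 0 (0%). Ptprb was higher in 8 of 8 sets (log2 fold change 0.21 ± 0.09, adjusted p = 0.72). With ALL, Emcn rose and Flt1 fell, while 1.14% of all genes rose and 2.04% fell. Over the same 9 sets Emcn was at 10.03 over 159.5 to 1863 FPM and higher in 8 (0.40 ± 0.08, adjusted p = 0.0034). Flt1 was at 4.04 over 41.9 to 110.4 FPM against 4.79 over 61.8 to 136 FPM in Control and lower in 9 of 9 sets (−0.41 ± 0.08, adjusted p = 0.0023). With the block by animal Emcn no longer passed (adjusted p = 0.81). Klf2 had a log2 fold change of −0.68 ± 0.23 and did not pass (adjusted p = 0.11). Between ALL and HG + FFA, edgeR and DESeq2 called 0 members in EC, edgeR called 0% of all genes, and 1 member reached an unadjusted p below 0.05 (5.14% of all genes). The fibroblast genes Col1a2 and Col3a1 fell with ALL as well (−0.64 and −0.48), and 4 of the 10 fibroblast markers fell with HG + FFA; their part in the members' changes was not tested. Without sets 9, 11 and 13, the rise of Emcn was 0.39 with HG + FFA and 0.40 with ALL, and Klf2 did not pass with HG + FFA (−0.71, adjusted p = 0.13).

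In WT VSMC, HG + FFA lowered 2 of 37 members tested, Cd34 and Klf2, while 0.319% of 16905 genes rose and 0.219% fell. Cd34 was at 21.1, 94.3, 12.7 and 191 FPM in Control of sets 1 to 4 and at 9.78, 70.4, 5.13 and 110.8 FPM with HG + FFA. It was lower in 4 of 4 sets, although the sets differed more than the conditions (log2 fold change −0.85 ± 0.11, adjusted p = 0.0023). Klf2 went from 23.4, 57.9, 27.5 and 32.0 FPM to 16.4, 32.3, 10.2 and 19.1 FPM, lower in 4 of 4 sets as well (−0.87 ± 0.12, adjusted p = 0.0027). With AII + NA, edgeR called 0 members, where 0.0473% of all genes rose and 0.00592% fell, 7 members reached an unadjusted p below 0.05 (9.42% of all genes) and DESeq2 called 1 (1% of all genes). This was Flt1, at 64.0, 51.4, 18.7 and 60.3 FPM against 50.3, 25.7, 11.9 and 20.9 FPM in Control, higher in 4 of 4 sets (0.88 ± 0.18, adjusted p = 0.11 in edgeR).

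**Figure D4:**
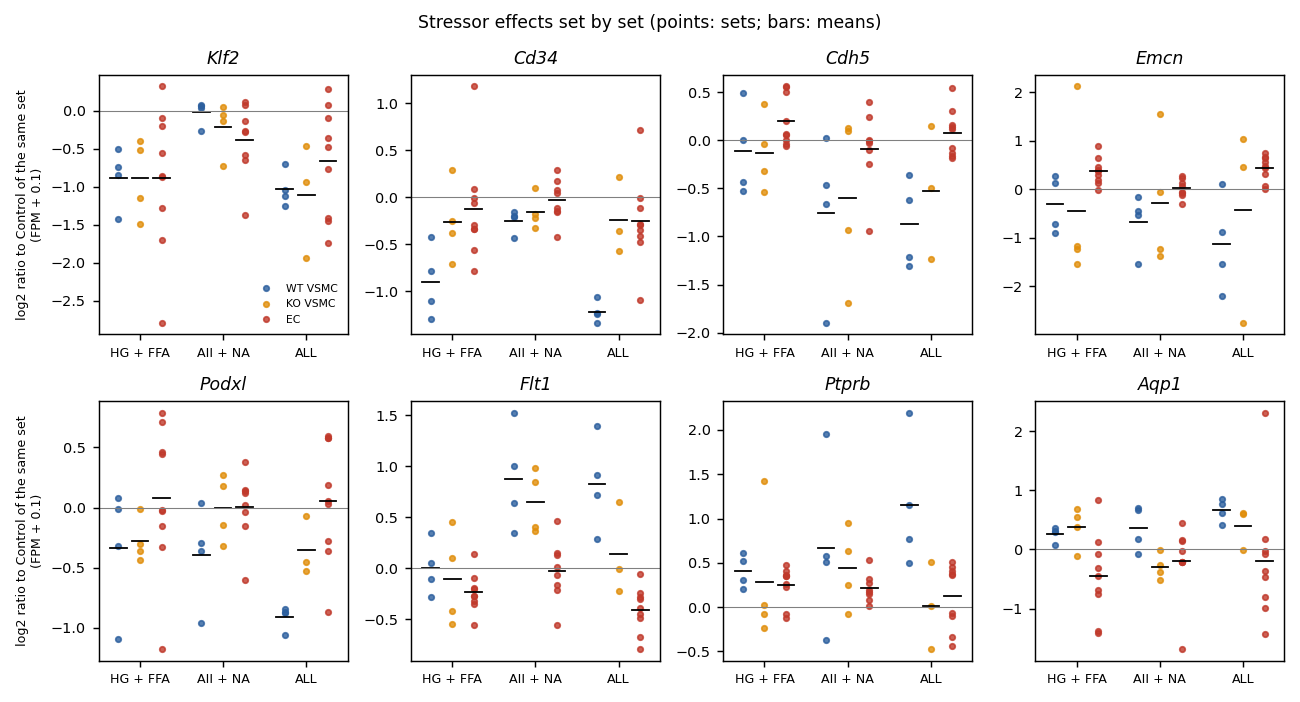
Log2 ratio to Control of the same set (FPM plus 0.1) for Klf2, Cd34, Cdh5, Emcn, Podxl, Flt1, Ptprb and Aqp1 with each stressor, 1 point per set of WT VSMC, KO VSMC and EC and bars at the means. With ALL, the 4 WT VSMC points of Klf2, Cd34, Cdh5 and Podxl lie below 0 and those of Flt1, Ptprb and Aqp1 above 0, and all 9 EC points of Flt1 lie below 0.

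With ALL, 3 members rose and 5 fell in WT VSMC, while 3.92% of all genes rose and 3.53% fell. The median log2 fold change was −0.40 for the members and −0.01 for all genes, and 18 of 37 members reached an unadjusted p below 0.05 (21.7% of all genes). Cd34 was at 8.84, 45.1, 5.38 and 75.8 FPM in sets 1 to 4 (log2 fold change −1.23 ± 0.12, adjusted p = 3.7e-05), and Klf2 at 14.3, 24.3, 12.6 and 15.5 FPM (−1.04 ± 0.12, adjusted p = 0.00023). Both were lower than Control in 4 of 4 sets. The 3 members that rose were Flt1 (61.3, 48.4, 19.7 and 55.1 FPM, 0.82 ± 0.18, adjusted p = 0.0100), Ptprb (8.94, 6.06, 2.83 and 6.87 FPM, 1.14 ± 0.27, adjusted p = 0.016) and Aqp1 (12.2, 27.8, 5.24 and 9.62 FPM, 0.66 ± 0.13, adjusted p = 0.0054), each in 4 of 4 sets. In Control, Ptprb had been at 3.97, 3.53, 1.97 and 1.42 FPM.

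The other 3 members that fell were low in WT VSMC. Cdh5 went from 0.611, 24.0, 0.110 and 0.839 FPM to 0.455, 10.3, 0.0363 and 0.280 FPM, so that most of its counts lay in set 2 (log2 fold change −1.17 ± 0.25, adjusted p = 0.0099). Without set 2 it did not pass (adjusted p = 0.29). Podxl went from 0.978, 2.26, 0.603 and 1.28 FPM to 0.487, 1.03, 0.291 and 0.654 FPM (−1.03 ± 0.28, adjusted p = 0.032), and Emcn from 1.41, 5.48, 0.192 and 0.0365 FPM to 0.228, 2.92, 0 and 0.0467 FPM (−1.57 ± 0.42, adjusted p = 0.033). Neither passed when any one set was left out. Flt1 did not pass without set 2 (adjusted p = 0.056), nor Ptprb without set 1 (adjusted p = 0.079). Between ALL and HG + FFA in WT VSMC, edgeR called 0 members, where 0.0296% of all genes were higher and 0.0118% lower, 10 members reached an unadjusted p below 0.05 (10.8% of all genes) and DESeq2 called 2, Flt1 and Cdh5 (1.33%).

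In KO VSMC, edgeR called 0 of 33 members tested with HG + FFA, where 0.336% of 17538 genes rose and 0.103% fell, and 0 members and 0% of all genes with AII + NA. An unadjusted p below 0.05 was reached by 3 members with each (12.4% and 9.76% of all genes), and DESeq2 called 1 and 0 (1.4% and 0.0627%). With ALL, edgeR called 1 member, which fell, where 0.279% of all genes rose and 0.12% fell. This was Klf2, with 9.78, 17.6 and 13.6 FPM in Control of sets 6 to 8 and 7.06, 4.53 and 7.04 FPM with ALL, lower in 3 of 3 sets and without overlap (log2 fold change −1.06 ± 0.21, adjusted p = 0.042). It did not pass without set 6, 7 or 8. With HG + FFA, Klf2 was at 18.2, 7.41, 6.23 and 6.09 FPM in sets 5 to 8 and lower in 4 of 4 sets (−0.89 ± 0.19, adjusted p = 0.052).

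**Figure D5:**
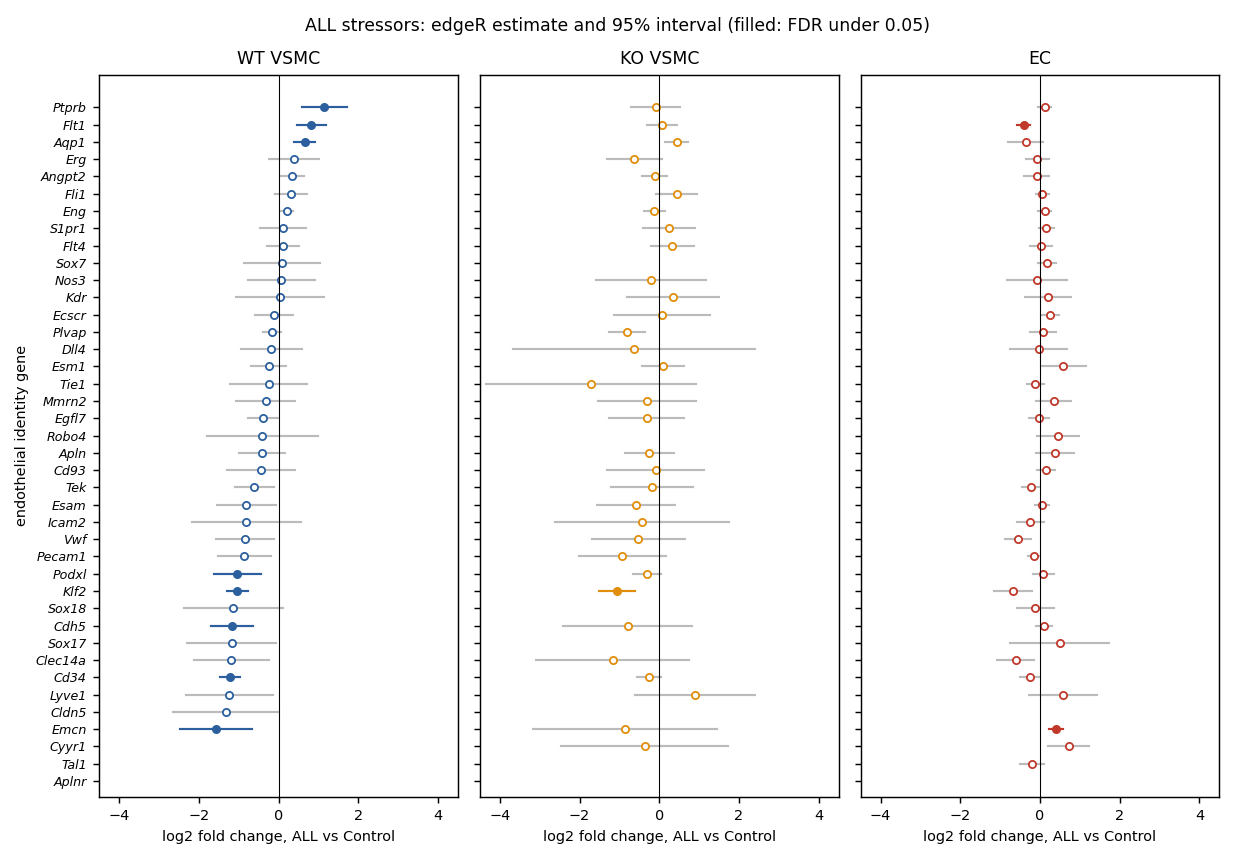
Log2 fold change with ALL against Control and its 95% interval (horizontal axis, edgeR) for each member tested in WT VSMC, KO VSMC and EC, filled where the adjusted p was below 0.05. In WT VSMC 8 members are filled, in KO VSMC Klf2 and in EC Emcn and Flt1, and the intervals in KO VSMC are wide for members of low expression.

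The difference of the stressor effects was tested directly, in contrasts that share their Control libraries with the comparisons above. Each difference comes from 1 model over both groups of cells and need not equal the difference of the separately fitted effects. Between WT VSMC and KO VSMC, edgeR called 0 of 38 members tested for HG + FFA, AII + NA or ALL, where it called 0% of 18339 genes in either direction, except 0.0109% lower for ALL. An unadjusted p below 0.05 was reached by 2, 3 and 10 members (3.08%, 11.9% and 7.42% of all genes), and DESeq2 called 0, 0 and 1 (0%, 0% and 0.316%). The effect of ALL on Cd34 was −1.23 in WT VSMC and −0.26 in KO VSMC, a difference of −0.96 ± 0.19 (95% interval −1.35 to −0.58, adjusted p = 0.082 in edgeR). For Klf2 the effects were −1.04 and −1.06, with a difference of 0.02 (95% interval −0.47 to 0.52). For Flt1 the effects of ALL were 0.82 and 0.07 (difference 0.75 ± 0.27, adjusted p = 0.48).

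Between EC and WT VSMC, edgeR called 0 of 39 members tested for HG + FFA and 0% of all genes, while 4 members reached an unadjusted p below 0.05 (2.05% of all genes) and DESeq2 called 0 (0.0155%). For AII + NA it called 1 lower, where 0% of 19362 genes were higher and 0.0465% lower. This was Flt1, with effects of −0.00 in EC and 0.88 in WT VSMC (difference −0.88 ± 0.18, adjusted p = 0.026), which did not pass without any one of sets 2, 4, 9, 11, 17 or 18. For ALL it called 3 members higher and 2 lower in EC, where 0.103% of all genes were higher and 0.408% lower. The effect on Emcn was 0.40 in EC and −1.57 in WT VSMC (difference 1.81 ± 0.30, adjusted p = 0.00064), on Cdh5 0.10 and −1.17 (1.27 ± 0.27, adjusted p = 0.012) and on Cd34 −0.26 and −1.23 (0.98 ± 0.22, adjusted p = 0.017). In WT VSMC Control, Emcn was at 1.41, 5.48, 0.192 and 0.0365 FPM and Cdh5 at 0.611, 24.0, 0.110 and 0.839 FPM in sets 1 to 4. Their WT VSMC effects thus rest on few counts outside set 2. Flt1 moved in opposite directions, −0.41 in EC and 0.82 in WT VSMC (difference −1.23 ± 0.18, adjusted p = 6.6e-05), and Ptprb by 0.11 and 1.14 (−1.02 ± 0.23, adjusted p = 0.015). With the block by animal 1 of these 5 members passed.

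The study's stricter rule (adjusted p below 0.05 in edgeR and DESeq2, absolute log2 fold change of at least 0.64, at least 3 FPM in a group) kept the 17 members of EC against WT VSMC, where it called 5.65% of all genes higher and 4.48% lower. In EC it kept 1 member (Klf2) with HG + FFA (0.257% of all genes higher, 0.397% lower) and 0 with ALL (0.222% higher, 0.414% lower), where edgeR and DESeq2 at the adjusted p alone each called 2 (5.22% of all genes in DESeq2) and 11 members reached an unadjusted p below 0.05 (16.2% of all genes). In WT VSMC it kept 2 with HG + FFA (0.189% higher, 0.101% lower), 0 with AII + NA (0.0414% higher, 0.00592% lower) and 6 with ALL (1.25% higher, 0.982% lower), without Podxl and Emcn. In KO VSMC it kept 0 with HG + FFA (0.234% higher, 0.057% lower) and Klf2 with ALL (0.217% higher, 0.0969% lower). For ALL against HG + FFA in WT VSMC it kept 0 (0.0237% higher, 0.00592% lower), and for ALL in EC minus WT VSMC all 5 (0.0826% higher, 0.336% lower).

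Genes that act with the members were examined by lists. In EC against WT VSMC, 3 of 15 tested ligands and partners of the endothelial receptors were higher (the Notch ligand Jag1, 2.17, the receptor Notch1, 2.78, and the co-receptor Nrp1, 1.48 on the log2 scale) and Vegfb was lower (−1.39). Of 16 other endothelial regulators tested, Hhex (6.92) and Ets1 (1.43) were higher and Klf4 lower (−1.38), and of 14 vessel type markers 6 were higher, among them Bmx (6.21) and Selp (6.17). Of 2 lymphatic markers tested Prox1 was higher (5.605), and of 5 mesothelial markers Wt1 (6.42). The summed lymphatic markers went the other way, with Control medians of 43.4 FPM in EC and 150 FPM in WT VSMC. Those of the summed mesothelial markers were 18.6 and 5.44 FPM, with overlapping ranges. Of 10 genes of endothelial-to-mesenchymal transition 4 were higher (S100a4, Tgfb2, Fn1 and Cdh2), of 10 fibroblast markers Dpt was lower (−3.49), and of 8 leukocyte markers Cd68 was lower (−1.78). None of the 10 smooth muscle and pericyte, 3 cardiomyocyte and 8 proliferation markers tested passed.

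With the stressors, the lipid-handling genes Fabp4 and Cd36 from the vessel type markers rose in EC, Fabp4 by 1.51 and 1.61 and Cd36 by 3.35 and 3.19 with HG + FFA and ALL. Fabp4 also rose in WT VSMC with ALL (1.82) and in KO VSMC with HG + FFA and ALL (1.01 and 1.39). In WT VSMC with ALL, 5 of 8 proliferation markers rose, among them Cenpf (1.504) and Mki67 (1.30), 3 smooth muscle and pericyte markers rose and 1 fell, and 2 of 10 fibroblast markers fell, Col3a1 (−0.68) and Fbln1 (−0.61). These changes accompanied the fall of Cd34 and Klf2, and their part in it was not tested.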

How the data were processed

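Counts per gene were deposited by the authors as raw, whole-number tables for WT VSMC, KO VSMC and EC. Per the labels and methods, the authors aligned paired-end reads to mm39 with HISAT2 2.1.0 and counted them with featureCounts over exons, multi-mapping reads included, which makes overlapping genes and near-identical copies uncertain. The submitters' processing notes name the same tools. The strand setting is not given in the sources used here. Of all counts, 0.0241% fell on identifiers without an annotation entry.

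The members and the marker lists (ligands and partners, other regulators, vessel type, lymphatic, fibroblast, smooth muscle and pericyte, cardiomyocyte, leukocyte, mesothelial, endothelial-to-mesenchymal transition and proliferation) were chosen with earlier results of these data known. Counts were tested with edgeR 4.0.16 (quasi-likelihood, TMM, filterByExpr, R 4.3.3), with Benjamini-Hochberg adjustment over all genes tested and a threshold of 0.05. Stressor effects were fitted with the set as a block, since the methods state that a set shares animal, passage and time. Same-set libraries deviated together (smallest correlation 0.494 for WT VSMC sets, 0.643 for KO VSMC sets and 0.609 for EC sets). EC and WT VSMC were compared on Control libraries only. Ratios per set used a pseudocount of 0.1 FPM. Alternatives were DESeq2 1.42.0, DESeq2 size factors, library totals, no count filter, no block, a block by animal (which joins EC sets 17 and 18), the study's stricter rule (adjusted p below 0.05 in edgeR and DESeq2, absolute log2 fold change of at least 0.64, at least 3 FPM) and leaving out each set.

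Members passing a stressor comparison and a fixed list of others are given by set. For EC against WT VSMC the 6 largest and all log2 fold changes of 1 or less are named, with the 3 smallest among those called. From the other lists, genes that passed are named, in part chosen after their values were seen. No libraries were identical. The tests were tried on simulated data with genes changed by 1 on the log2 scale. The comparisons of EC or KO VSMC with WT VSMC under Control recovered 4% of these genes each. For ALL against Control, 83.5% were recovered in EC, 71.5% in WT VSMC and 64% in KO VSMC. For the difference of the ALL effects, 52% were recovered between WT VSMC and KO VSMC and 59% between EC and WT VSMC. Changes of that size can thus go uncalled in all of these. The detection floor of 3 counts covers counting error only.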

Additional observations from a re-analysis of the deposited data

Results flagged for a closer look

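Of 68 groups of Control levels and stressor ratios examined, 10 had a highest or lowest set far from the others by Dixon's test. For independent, normally distributed values, chance gives this in about 1 of 20 groups. The groups here share libraries and several levels are near 0, so the count cannot be set against that rate. In WT VSMC Control, set 2 was far above the other sets for Pecam1 (17.2 FPM), Cdh5 (24.0 FPM), Sox17 (4.73 FPM) and Nos3 (2.37 FPM), and set 3 was far below them for Tek (0.247 FPM). In EC Control, set 14 stood out for Tek (213 FPM), set 15 for Sox17 (5.56 FPM) and set 11 for Aplnr (0.421 FPM, a level near the floor). In KO VSMC Control, set 6 stood out for Esm1 (49.8 FPM), and for Podxl in WT VSMC with ALL, set 2 had the lowest log2 ratio to Control (−1.06).

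The stressor effect differed between EC and WT VSMC in the test of the difference itself for Flt1 with AII + NA (−0.88 on the log2 scale, EC minus WT VSMC) and, with ALL, for Cdh5 (1.27), Emcn (1.81), Cd34 (0.98), Flt1 (−1.23) and Ptprb (−1.02). Cell type, organ and batch cannot be told apart in these differences. Outside set 2, Emcn and Cdh5 did not exceed 1.41 and 0.839 FPM in WT VSMC Control.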

How the results depend on the processing

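The counts of members called are given here where an alternative moved them by more than 1.5 times. No result reversed its direction under the alternatives run, and the cause of each change was not tested. Shares over all genes were computed for DESeq2 and the stricter rule only. The other counts in this section therefore cannot be set against all genes, whose calls may have changed as well. DESeq2 called 28 members in EC against WT VSMC, 3 in KO VSMC against WT VSMC, 5 in EC with HG + FFA, 1 in WT VSMC with AII + NA, 1 and 2 in KO VSMC with HG + FFA and ALL, 2 in WT VSMC for ALL against HG + FFA and 1 for ALL in WT VSMC minus KO VSMC. In KO VSMC with ALL, it called 1.48% of all genes, and its other shares are given above. Without a count filter there was 1 in KO VSMC against WT VSMC, 9 and 8 in EC with HG + FFA and ALL, 3 in WT VSMC with AII + NA, 2, 1 and 3 in KO VSMC with HG + FFA, AII + NA and ALL, 7 in WT VSMC for ALL against HG + FFA, 1 and 3 in WT VSMC minus KO VSMC for AII + NA and ALL, and 2, 2 and 9 in EC minus WT VSMC for HG + FFA, AII + NA and ALL. With no replicate block, 0 were called in each of the 7 stressor comparisons that had calls. With the replicate block by animal there were 0 in EC with HG + FFA, 1 in EC with ALL, and 0 and 1 in EC minus WT VSMC for AII + NA and ALL. The study's stricter rule left 1 in EC with HG + FFA and 0 with ALL, and fitting only the 2 groups compared gave 1 in WT VSMC with AII + NA.

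Without EC sets 9, 11 and 13, an alternative chosen after seeing the data, 29 members were called in EC against WT VSMC and 0 in EC minus WT VSMC for AII + NA; as these sets were picked by the members' own levels, the first count is raised by construction. Leaving out each set in turn gave 4 to 26 members in EC against WT VSMC, 0 to 2 in KO VSMC against WT VSMC, 1 to 3 and 2 to 3 in EC with HG + FFA and ALL, 4 to 7 in WT VSMC with ALL, 0 to 1 and 0 to 2 in KO VSMC with HG + FFA and ALL, 0 to 1 in WT VSMC for ALL against HG + FFA, and 0 to 1 and 2 to 6 in EC minus WT VSMC for AII + NA and ALL. DESeq2 size factors in edgeR changed none of 19 counts by that much, nor did library totals the 2 counts they were run for, nor keeping sets 17 and 18 separate the 1 count that joined them. Depth limits the members under 1 FPM in VSMC, where few counts carry a ratio.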

Other observations

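The EC sets from the animals that gave KO VSMC sets 6 and 7 had the lowest Egfr of the EC, with set means of 2.65 FPM in set 16 and 9.40 FPM in set 15, where the other EC sets had 12.8 to 151 FPM. EC sets 9, 11 and 13, which were the 3 lowest sets for 19 of the 40 members, had 134, 151 and 137 FPM of Egfr.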
